A study of Mus musculus with 6 samples.

Results

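The blood vessel wall was followed through 10 genes, Cldn5, Pecam1, Cdh5, Flt1, Kdr, Slc2a1, Pdgfrb, Rgs5, Col4a1 and Col4a2, in RNA from the corpus callosum of mouse pups on postnatal day 4. They were chosen by name as genes of endothelial cells, of the mural cells around them and of the membrane both share. Earlier results of these data were known when they were chosen. They are 10 of the 24411 genes in the deposited tables. The study asks how m6A, a methyl mark on RNA, bears on the travel of neuronal mRNA into axons. It compared 3 libraries from WT mice with 3 labelled Mettl14 cKO, a conditional deletion of Mettl14, whose protein works with its catalytic partner in depositing m6A. The brains, described as B6, were frozen and cut at 60 µm, the tract was dissected by hand, and polyadenylated RNA was sequenced. The sources used here give neither the Cre driver of the deletion, nor the cells it reaches, nor how many animals a library holds, so a p-value here speaks only for the spread among the 6 libraries, which may be technical.

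Brain capillaries are tubes of endothelial cells sealed by tight and adherens junctions, which form the blood-brain barrier. Pericytes and smooth muscle cells, together called mural cells, sit on their outer face inside a basement membrane built on type IV collagen. Vessels grow into the brain from the surface in response to VEGF made by neural cells, and endothelial PDGF-B draws pericytes to them through the receptor encoded by Pdgfrb. Vessels run through the corpus callosum, and the tissue was taken whole, although its label reads callosal axon.

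The 2 collagen genes of the set lie head to head on chromosome 8 and share their start region, so the promoter windows are shown for reading their values side by side. Each RefSeq window (GRCm38.p6) runs from 250 bases before to 50 bases after the start site, 5′ to 3′ on the gene's own strand. Capitals mark the 78 bases that both windows hold, and 22 bases between the start sites are transcribed on both strands.
Col4a1 (chr8:11312777-11313076, minus strand): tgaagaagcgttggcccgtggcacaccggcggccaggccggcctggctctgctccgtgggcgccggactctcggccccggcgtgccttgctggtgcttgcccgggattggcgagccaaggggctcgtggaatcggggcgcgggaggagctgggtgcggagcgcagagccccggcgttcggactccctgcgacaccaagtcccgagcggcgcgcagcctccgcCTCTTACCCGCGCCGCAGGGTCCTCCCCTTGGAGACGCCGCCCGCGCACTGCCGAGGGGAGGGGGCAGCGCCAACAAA
Col4a2 (chr8:11312555-11312854, plus strand): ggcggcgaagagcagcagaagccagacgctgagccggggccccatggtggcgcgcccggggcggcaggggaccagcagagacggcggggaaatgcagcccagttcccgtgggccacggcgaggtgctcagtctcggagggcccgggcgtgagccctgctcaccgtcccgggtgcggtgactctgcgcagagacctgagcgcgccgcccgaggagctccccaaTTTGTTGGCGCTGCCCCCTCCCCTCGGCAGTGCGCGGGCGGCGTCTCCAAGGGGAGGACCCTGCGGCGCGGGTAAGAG

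For 7 of the genes the RefSeq table held a promoter window. The CCAAT box, searched as CCAAT on both strands, was in 5 of these 7 windows (Cldn5, Slc2a1, Rgs5, Col4a1 and Col4a2) and in 37.4% of all 32851 windows of that length. The GC box, searched as GGGCGG on both strands, was in 6 of 7 (not in Rgs5) and in 35.7% of all. The TATA box, searched as TATAAA on both strands, was in those of Flt1 and Slc2a1 and in 13.6% of all. The windows of Col4a1 and Col4a2 overlap and are not independent, and a match describes the letters only.

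The libraries held 670462 to 1268430 expected counts. Levels are given as CPM, counts scaled with edgeR's TMM method and by library size over the genes kept for the main test. A gene at 0 counts may still have up to 3 counts, or 2.41 to 4.24 CPM. Both replicate 2 libraries were deeper and had shorter fragments, with means of 304.3 and 292.7 bases against 332.4 to 350.5 in the others. Mettl14, the targeted gene, was at 11, 8 and 5 counts in WT replicates 1 to 3 and at 2, 7 and 2 in the cKO replicates, so its loss was not detectable at this depth. All cKO libraries and no WT library had Xist counts, and the reverse held for the Y-linked Eif2s3y, so genotype and sex cannot be told apart here. Markers of other cells in the tract differed as well. The 8 oligodendrocyte markers summed to 2536 to 4122 CPM in WT and 2.0 to 10.8 in cKO, the 10 astrocyte markers to 8147 to 9344 and 1834 to 2329, and the 8 neuron markers to 5099 to 6030 and 11020 to 14001. The astrocyte markers Gfap and Gja1, named after their values were seen, overlapped between the groups. Gfap stood at 1031 CPM in cKO replicate 3, within the WT range of 929 to 1248. Gja1 stood at 175 CPM in cKO replicate 2, above WT replicate 1 at 68.5. The 8 neuron markers did not all move with their sum (those named here were named after their values were seen). Lower on average in cKO were 2, Snap25 (364 against 453 CPM) and Syt1 (33.2 against 70.2), and both overlapped between the groups. Neurod2 and Neurod6, each with 2 exons, averaged 2243 and 1370 CPM in cKO against 0 and 51.3 in WT. The part of these other cells in the vessel gene values was not tested.

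Of the 10 genes 9 had counts, and all 9 averaged at least 5 CPM over the 6 libraries (this filter scales by total count alone, without TMM). Of the 9, 6 (Pecam1, Cdh5, Flt1, Kdr, Pdgfrb and Rgs5) were lower in every cKO library than in any WT library, as were 9.34% of the 8412 genes with that mean, and Slc2a1, Col4a1 and Col4a2 overlapped. Cdh5 reached that mean only through WT replicate 2, at 47.4 CPM against 1.41 to 6.98 in the other libraries. It is part of these 6 and of those at an unadjusted p below 0.05, so counts without that library are given below. Of the 9, 0 were higher without overlap, against 9.51% of those genes. All 9 had a negative fitted log2 fold change, as had 45.9% of those genes, and their median was −1.53 against 0.08 over all. In that fit 0 of the 9 passed an adjusted p below 0.05, as did 0.202% of all genes. In edgeR's main quasi-likelihood test 0 vessel genes were called in either direction, against 0.912% of the 5918 genes tested, and DESeq2 (4.48% of genes with an adjusted p) and limma-voom also called 0. In the main test 5 of its 8 vessel genes were lower at an unadjusted p below 0.05 (5.41% of all genes in it), a count not read further because 2 of them passed its filter through WT alone. At an unadjusted p below 0.05, 6 of the 9 were lower in the fit over genes with a mean of 5 CPM, against 5.05% of all genes in it. CPM are shares of a library. In bulk tissue, fewer vessel cells, less RNA per cell and more RNA from other cells cannot be told apart.

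WT replicate 2 stood highest in its group for Cdh5, Kdr, Slc2a1, Col4a1 and Col4a2, so the counts were repeated without it. Of the genes, 8 then averaged at least 5 CPM, Cdh5 no longer among them. Of these 8, 5 were lower in cKO without overlap (15.7% of all genes in that fit). At an unadjusted p below 0.05, 4 were lower (4.33%). Without both replicate 2 libraries 6 of 8 were lower in cKO without overlap (23.8%), Slc2a1 now among them. At an unadjusted p below 0.05, 4 were lower (4.9%). Col4a2 was then higher without overlap, at 304 and 144 CPM in cKO against 142 and 136 in WT. Of all 7901 genes in that fit, 1709 were higher without overlap.

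**Figure D1:**
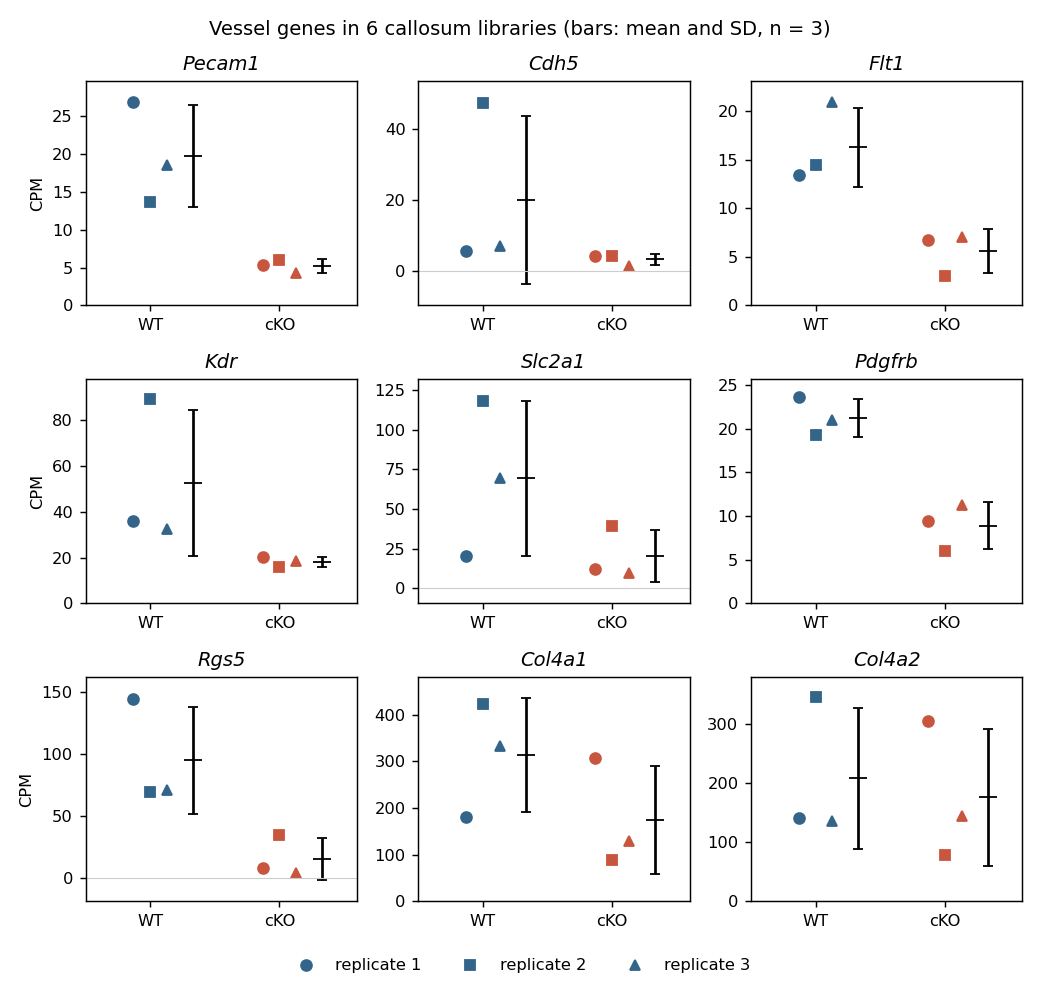
CPM of the 9 vessel genes with counts, in separate panels with their own axes; each point is a library (shape: replicate number) and bars give mean and SD of 3 libraries. The cKO points lie below all WT points for Pecam1, Cdh5, Flt1, Kdr, Pdgfrb and Rgs5, while for Slc2a1, Col4a1 and Col4a2 at least 1 cKO point lies above the lowest WT point.

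The junction genes with counts, Pecam1 and Cdh5, stood lower in every cKO library. Cldn5 (chromosome 16, 18776847 to 18778262, GRCm38, plus strand), the main claudin of brain endothelial tight junctions, was listed at 0 counts in all 6 libraries. No comparison can be made. Cldn5 has 1 exon, and 1873 of 2011 protein-coding genes with 1 exon (93.1%) were at 0 in every library, against 66.1% of those with 2 or 3 exons and 3684 of 15157 (24.3%) with more than 3. A 0 in the first of these classes therefore sets no upper limit on the level of Cldn5. The endothelial Clec14a and the mural Foxc1, also with 1 exon, were at 0 too, while Aplnr, another such gene, had 36 counts in WT replicate 2, 16 in cKO replicate 2 and 0 elsewhere (these 3 were named after their values were seen). The part of exon number in the Cldn5 value was not tested.

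Pecam1 (chromosome 11, 106654217 to 106750628, minus strand, 16 exons) encodes the adhesion molecule CD31, which joins neighbouring endothelial cells. Its level was 27.0, 13.7 and 18.6 CPM in WT replicates 1 to 3 and 5.38, 6.01 and 4.24 CPM in cKO. The groups did not overlap, and the cKO libraries lay close together. The mean was 19.7 ± 6.72 CPM in WT and 5.21 ± 0.893 in cKO (SD, n = 3). The log2 fold change was −1.87 (SE 0.41, edgeR adjusted p = 0.144). The difference was of like size without both replicate 2 libraries, at −2.20 (SE 0.46). The tables hold 4 Pecam1 transcripts, and RSEM gave all reads of each cKO library to the shortest, of 3030 bases, against 50.8%, 78.9% and 52.6% in WT. With 3 to 6 Pecam1 counts per cKO library, a change in transcript use was not detectable.

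Cdh5 (chromosome 8, 104101625 to 104144511, plus strand, 12 exons) encodes VE-cadherin, the adherens junction protein of endothelial cells. It was counted 5, 59 and 6 times in WT against 3, 4 and 1 in cKO, or 5.62, 47.4 and 6.98 CPM against 4.03, 4.0 and 1.41. The groups did not overlap, but WT replicate 2 alone stood far above the rest, and the other WT libraries, with 5 and 6 counts, were close to the 4 of the highest cKO library. Cdh5 lay below the filter of the main test. Fitted without a filter, its log2 fold change was −2.64 (SE 1.03) and the edgeR adjusted p was 0.524. Between the replicate 2 libraries the WT level was 11.8 times that of cKO, and between the means of replicates 1 and 3 it was 2.31 times. Gm29682, an antisense gene in the tables, overlaps Cdh5, and without strand its reads cannot be told apart.

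The VEGF receptors were both lower in the cKO libraries. Flt1 (chromosome 5, 147561604 to 147726011, minus strand, 30 exons) encodes VEGFR1, which binds VEGF tightly, signals weakly and also exists as a soluble trap. Its level was 13.5, 14.5 and 21.0 CPM in WT and 6.72, 3.00 and 7.07 in cKO, from 12, 18 and 18 counts against 5, 3 and 5. The highest cKO library stood below the lowest WT library, and the log2 fold change was −1.55 (SE 0.44, edgeR adjusted p = 0.238). With single libraries left out it ranged from −1.73 to −1.22. The tables hold 1 Flt1 transcript, of 6280 bases, so the membrane-bound and soluble forms were not separated.

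Kdr (chromosome 5, 75932827 to 75978458, minus strand, 30 exons) encodes VEGFR2, the main signalling receptor for VEGF in endothelial growth. It stood at 35.9, 89.2 and 32.6 CPM in WT and at 20.2, 16.0 and 18.4 in cKO. The 3 cKO libraries were nearly equal, while WT replicate 2 was 2.74 times WT replicate 3. The log2 fold change was −1.53 (SE 0.53, edgeR adjusted p = 0.298), and without WT replicate 2 it was −0.91 (SE 0.35). Per length, Kdr exceeded Flt1 in every library, with TPM ratios of 3.1, 7.16 and 1.81 in WT and 3.49, 6.18 and 3.02 in cKO. Kdr took 72.7%, 86.0% and 60.9% of the reads of the pair in WT and 75%, 84.2% and 72.2% in cKO, so the groups overlapped in this share (Wilson 95% intervals from 46.5% to 94.5% over the libraries).

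Of 32 ligands, co-receptors and effectors of vessel growth and barrier signalling, 18 had a mean of at least 5 CPM, and their median log2 fold change was 1.46 against 0.08 over all genes. Wnt7a, Tgfbr1, Tgfbr2 and Lrp6, named after their values were seen, had most of their counts in cKO replicate 2, with 66, 57, 32 and 114 there. Without WT replicate 2 the median was 1.63 against 0.20 over all genes. Without both replicate 2 libraries 16 genes reached that mean, with a median of 0.11 against 0.04 over all genes. Of these 16, 6 were higher without overlap (1709 of all 7901 genes) and 2 lower (23.8%). At an unadjusted p below 0.05, 4 of them were higher (421 of all 7901) and 1 lower (4.9%). Over all 6 libraries 5 of the 18 were higher without overlap (9.51% of all genes) and 1 lower (9.34%). In the fit to all 6 libraries 4 were higher and 1 lower at an unadjusted p below 0.05, where the shares of all genes were 6.76% and 5.05%. With edgeR and limma-voom 0 were called over all genes, and DESeq2 called 1 higher and 1 lower, Ndp and Notch1. DESeq2 called 4.48% of all genes with an adjusted p, in either direction. Vegfa, the ligand of both receptors, named for that role after its values were seen, was at 9, 11 and 10 counts in the WT libraries and at 9, 3 and 10 in the cKO libraries (log2 fold change −0.07, SE 0.63, in the fit over genes with a mean of 5 CPM). Ndp encodes norrin, a ligand of the Wnt receptor complex that maintains the retinal and brain barrier. All WT libraries had 0 counts and the cKO libraries 11, 33 and 34, which is at least 31.8-fold higher when 3 counts are allowed over the WT group (edgeR adjusted p = 0.0687). Ndp has 3 exons, a class of which 77.6% to 85.1% of genes were at 0 in a single library, so its 0 counts in WT are less certain than that bound, which covers counting error only. Notch1, a receptor through which endothelial and neural cells signal to neighbours, stood at 261, 449 and 262 CPM in WT and at 14.8, 89.1 and 29.7 in cKO (log2 fold change −2.85, SE 0.76, edgeR adjusted p = 0.208). Nrp2, a co-receptor for VEGF and semaphorins that neurons also express, stood at 4.5, 18.5 and 3.5 CPM in WT and at 28.2, 61.1 and 84.9 in cKO (log2 fold change 2.66, SE 0.78, edgeR adjusted p = 0.241). Shb, an adaptor of receptor tyrosine kinases, was at 1.96 (SE 0.59, edgeR adjusted p = 0.248). These genes are not confined to vessels. The summed neuron markers given above were higher in the cKO libraries, where Notch1 was lower. The part of neurons in the values of these genes was not tested.

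Slc2a1 (chromosome 4, 119108711 to 119137983, plus strand, 10 exons) encodes GLUT1, which carries glucose across the barrier and is also made by astrocytes and red cells. Its level was 20.2, 118 and 69.8 CPM in WT and 12.1, 39.0 and 9.90 in cKO. The groups overlapped, because cKO replicate 2 stood above WT replicate 1. In both groups replicate 2 was the highest. The mean was 69.4 ± 48.9 CPM in WT and 20.3 ± 16.2 in cKO (SD, n = 3). Its log2 fold change was −1.75 (SE 0.83, edgeR adjusted p = 0.455). Without WT replicate 2 it was −1.12 (SE 0.83) and without cKO replicate 2 it was −2.64, and between the replicate 2 libraries the WT level was 3.02 times that of cKO. The summed astrocyte markers given above were lower in the same cKO libraries, and their part in the Slc2a1 values was not tested. The annotation has 2 antisense genes over Slc2a1, which the tables do not list.

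Among 21 other transporter and junction genes of the barrier, 15 had a mean of at least 5 CPM. Of these, 10 had a negative log2 fold change (45.9% of all genes), with a median of −0.65, and 5 were lower without overlap (9.34%). In that fit 1 was lower at an unadjusted p below 0.05 (5.05%), near the share over all genes, and 0 were called over all genes with edgeR, DESeq2 or limma-voom. Mfsd2a, a lipid transporter that limits vesicle traffic through brain endothelium, stood at 49.4, 80.3 and 36.1 CPM in WT and at 22.9, 31.0 and 19.8 in cKO. Its log2 fold change was −1.17 (SE 0.47, edgeR adjusted p = 0.384). Slc38a5, a glutamine transporter, was at −1.06 (SE 0.44), Bsg, the chaperone of lactate transporters, at −0.99 (SE 0.46) and Jam2, a junction protein, at −1.04 (SE 0.49). Bsg was even within WT, at 1113 to 1134 CPM, and in cKO it was 744, 735 and 225, with replicate 3 far below the rest.

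A list of 36 further endothelial genes was sparse. At 0 in every library were 5 of them, Sox7, Sox18, Icam2, Clec14a and Lyve1 (the first 4 are pan-endothelial and Lyve1 is lymphatic, and all were named after their values were seen). Clec14a has 1 exon and Sox7 and Sox18 have 2, classes in which most genes were at 0. Of the 20 with a mean of at least 5 CPM, 18 had a negative log2 fold change (45.9% of all genes) and 4 were lower without overlap (9.34%). Their median was −0.96, 3 were lower (5.05%) and 0 higher (6.76%) at an unadjusted p below 0.05, and 0 were called over all genes with edgeR, DESeq2 or limma-voom. Without WT replicate 2 the list had 16 such genes, 13 of them negative (42% of all genes in that fit). At an unadjusted p below 0.05, 1 of the 16 was then lower (4.33%), near the share over all genes. Tie1, an endothelial receptor tyrosine kinase, was at 24, 24 and 20 counts in the WT libraries and at 13, 14 and 7 in the cKO libraries (log2 fold change −0.74, SE 0.36, edgeR adjusted p = 0.478). Cd34, a surface sialomucin of capillary endothelium, ranged from 12.8 to 108 CPM within WT and from 4.03 to 50.05 within cKO (log2 fold change −1.68, SE 1.14). Nos3, which makes nitric oxide in endothelium, was at −0.88 (SE 0.62), and Ctla2a, an inhibitor of cathepsins, at −0.45 (SE 0.37).

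**Figure D2:**
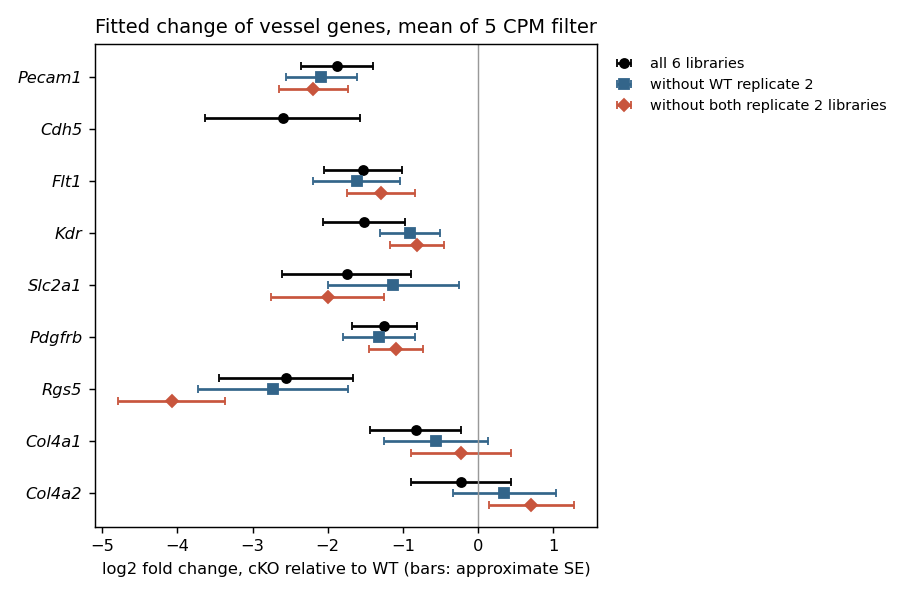
Fitted log2 fold change (cKO relative to WT, horizontal axis) of the 9 vessel genes in the fit over genes with a mean of 5 CPM, with approximate SE bars, for all 6 libraries, without WT replicate 2 and without both replicate 2 libraries. Rgs5 lies at −2.55, −2.73 and −4.08 in these fits and Col4a2 at −0.23, 0.35 and 0.71; Cdh5 has a value only with all libraries.

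Rgs5 and Pdgfrb, the pericyte genes of the set, stood lower in every cKO library. Rgs5 (chromosome 1, 169655501 to 169695813, plus strand, 5 exons) encodes a regulator of G-protein signalling that is abundant in brain pericytes. It stood at 145, 69.9 and 71.0 CPM in WT and at 8.07, 35.03 and 4.24 in cKO, from 129, 87 and 61 counts against 6, 35 and 3. Every WT library exceeded every cKO library, but cKO replicate 2 held most of the cKO counts. For Rgs5 the log2 fold change was −2.56 (SE 0.86, edgeR adjusted p = 0.281). Between the replicate 2 libraries the WT level was 1.99 times that of cKO, and between the means of replicates 1 and 3 it was 17.5 times. The fit without both replicate 2 libraries gave −4.09 (SE 0.70, edgeR adjusted p = 0.19).

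Pdgfrb (chromosome 18, 61045150 to 61085061, plus strand, 23 exons), the receptor by which pericytes are recruited, varied least within WT. It stood at 23.6, 19.3 and 21.0 CPM in WT and at 9.41, 6.01 and 11.3 in cKO, from 18 to 24 counts against 6 to 8. The groups lay well apart, with means of 21.3 ± 2.17 and 8.91 ± 2.69 CPM (SD, n = 3). Its log2 fold change was −1.26 (SE 0.36, edgeR adjusted p = 0.238) and −1.09 (SE 0.34) without both replicate 2 libraries. Its ligand gene Pdgfb, named for that role after its values were seen, was at 4, 2 and 3 counts in the WT libraries and at 1, 0 and 1 in the cKO libraries, too few for a comparison. The share of Rgs5 in the reads of Rgs5 and Pdgfrb was 86.0%, 78.4% and 77.2% in WT and 46.2%, 85.4% and 27.3% in cKO. The Wilson 95% interval of cKO replicate 3 (9.75% to 56.6%) lay below those of all WT libraries, and that of cKO replicate 2 (71.6% to 93.1%) overlapped them.

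Of 21 other mural genes 18 had a count and 5 passed the filter at a mean of 5 CPM. Of these 5, 4 had a negative log2 fold change (45.9% of all genes), and the median was −0.67. At an unadjusted p below 0.05, 2 were lower (5.05%), Mcam and Cspg4, and 0 without WT replicate 2 (4.33%). Over all genes 0 of them were called with edgeR, DESeq2 or limma-voom. Oligodendrocyte precursors also express Cspg4 (named after its values were seen). WT replicate 2 alone supplied 215 of the 230 Cspg4 reads of its group, and the cKO group had 1. The part of those precursors in the Cspg4 value was not tested. Mcam, an adhesion molecule of pericytes and endothelium, stood at 28.1, 59.4 and 14.0 CPM in WT and at 13.4, 4.0 and 8.5 in cKO (log2 fold change −1.99, SE 0.69, edgeR adjusted p = 0.3). Abcc9, a channel subunit of pericytes, did not share the direction, at 0.66 (SE 0.61), and was at −0.27 without both replicate 2 libraries. Kcnj8, the channel pore that pairs with Abcc9 in pericytes, had 31 counts in cKO replicate 2 and 0 in every other library (named after its values were seen). It lay just under the filter but reaches a mean of 5 CPM on the scale used for levels here, and would then be a further gene higher in cKO. Notch3, the mural Notch receptor, was at −0.44 (SE 0.68). Smooth muscle genes were near the limit of detection. Acta2 and Myh11, the actin and myosin of arterial smooth muscle, had at most 3 and 5 counts in any library (named after their values were seen).

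The type IV collagen genes had the highest mean CPM of the set and did not separate the groups. Col4a1 (chromosome 8, 11198423 to 11312826, minus strand, 52 exons) and Col4a2 (11312805 to 11449287, plus strand, 48 exons) encode the chains that form the collagen heterotrimer of every vascular basement membrane. Col4a1 stood at 182, 424 and 334 CPM in WT and at 307, 88.1 and 129 in cKO. Within cKO, replicate 1 was 3.48 times replicate 2 and above WT replicate 1. The log2 fold change was −0.85 (SE 0.60, edgeR adjusted p = 0.654), −1.55 without cKO replicate 1 and −0.23 (SE 0.66) without both replicate 2 libraries.

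Col4a2 stood at 142, 345 and 136 CPM in WT and at 304, 79.1 and 144 in cKO. WT replicate 2 and cKO replicate 1 were the high libraries, as for Col4a1. In the fit its log2 fold change was −0.24 (SE 0.66, edgeR adjusted p = 0.946). It turned to 0.34 (SE 0.69) without WT replicate 2 and to 0.70 (SE 0.57) without both replicate 2 libraries, so no direction can be given.

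The collagen genes with the shared start region had nearly equal read shares in cKO and more Col4a1 in WT replicate 3. Col4a1 took 56.3%, 55.2% and 71.0% of the reads of the pair in WT and 50.2%, 52.7% and 47.2% in cKO. Every WT share was above every cKO share, but the Wilson 95% intervals of WT replicates 1 and 2 (50.5% to 61.9% and 52.0% to 58.3%) overlapped those of all cKO libraries. Only WT replicate 3, at 66.4% to 75.2%, stood apart from them. Per length, the Col4a1 to Col4a2 ratio of TPM was 1.25, 1.19 and 2.38 in WT and 0.979, 1.08 and 0.865 in cKO. This ratio was examined after the values were seen, and 3 libraries against 3 cannot give a two-sided permutation p below 0.1.

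**Figure D3:**
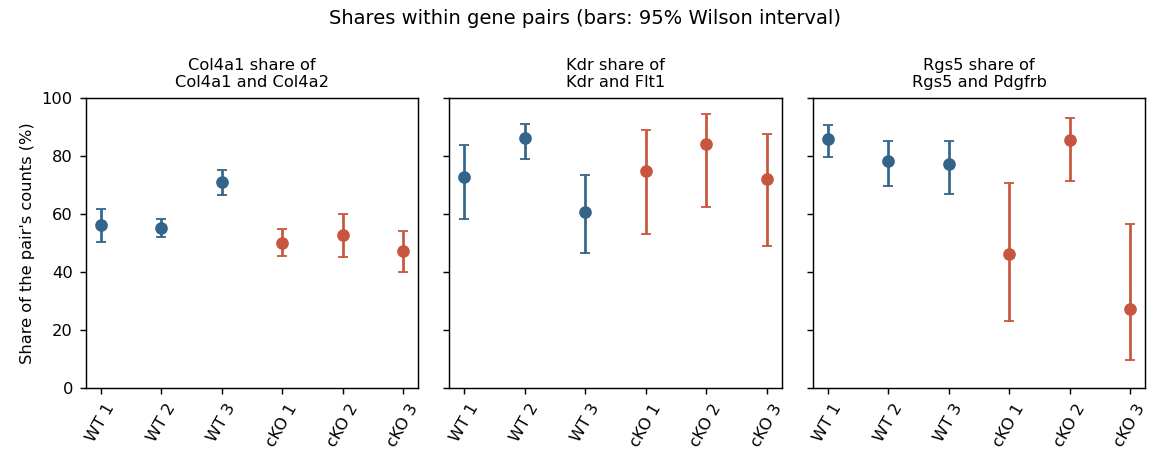
Share of a gene in the reads of a pair (vertical axis, %) in each of the 6 libraries, with 95% Wilson intervals that cover counting error only. The Rgs5 share falls outside the WT range in cKO replicates 1 and 3 (46.2% and 27.3%), and the Col4a1 share is highest in WT replicate 3 (71.0%).

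Other basement membrane genes had more negative than positive values. Of 36 listed matrix, receptor and collagen-modifying genes, 31 had a mean of at least 5 CPM, with a median log2 fold change of −0.36, 22 negative values (45.9% of all genes), 4 genes lower (9.34%) and 2 higher (9.51%) without overlap. At an unadjusted p below 0.05, 3 were lower (5.05%) and 1 higher (6.76%), and without WT replicate 2 the median was −0.17 against 0.20 over all genes. The adjusted threshold was passed by 0 with edgeR or limma-voom and by 1, Sparc, with DESeq2 (4.48% of all genes with an adjusted p). Sparc, a collagen-binding matrix protein that glia also secrete, stood at 1314, 1052 and 1343 CPM in WT and at 678, 595 and 547 in cKO (log2 fold change −1.03, SE 0.23, edgeR adjusted p = 0.151, DESeq2 adjusted p = 0.00765). Plod1, a lysyl hydroxylase that modifies collagen chains, was at 52.8, 72.3 and 46.6 CPM in WT and 28.2, 18.0 and 12.7 in cKO (log2 fold change −1.54, SE 0.47, edgeR adjusted p = 0.251). Lama4, the laminin chain of endothelial basement membrane, was at −1.73 (SE 0.74), with 38.2, 113 and 16.3 CPM in WT and 14.1 to 20.0 in cKO. Fn1, fibronectin, was at −0.996 (SE 0.42). The collagen chains Col4a3, Col4a4 and Col4a6, which belong to other basement membranes, had at most 3 counts in any library (named after their values were seen).

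**Figure D4:**
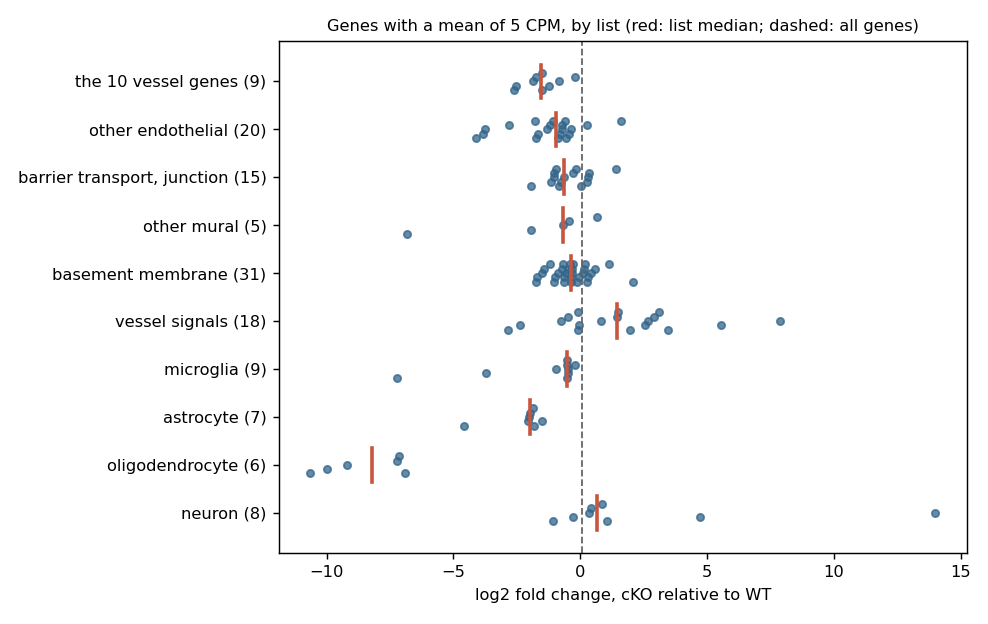
Fitted log2 fold change (horizontal axis) of each gene with a mean of at least 5 CPM, by gene list, with the number of genes in parentheses, the list median in red and the median of all genes (0.08) dashed. The vessel genes have a median of −1.53, other endothelial genes −0.96, vessel signals 1.46 and astrocyte markers −1.97.

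Per length, Rgs5 and the collagen genes were the most abundant of the set in WT. Mean TPM in WT was 88.0 ± 40.9 for Rgs5, 68.5 ± 29.2 for Col4a1, 47.5 ± 30.2 for Col4a2 and 42.7 ± 32.0 for Slc2a1 (SD, n = 3). Kdr followed at 14.4 ± 9.55, Pecam1 at 9.58 ± 3.15, Cdh5 at 7.79 ± 9.56, Pdgfrb at 5.71 ± 0.613 and Flt1 at 3.70 ± 0.680 TPM, and Cldn5 at 0. Neighbours in this order differed by less than the larger of their SDs, except Pdgfrb and Flt1, and Flt1 and Cldn5. In cKO the collagen genes led, at 37.3 ± 21.7 TPM for Col4a2 and 35.6 ± 20.7 for Col4a1. Rgs5 had 13.03 ± 13.03, Slc2a1 11.4 ± 8.14, Kdr 4.69 ± 0.935, Pecam1 2.50 ± 0.146, Pdgfrb 2.37 ± 1.05, Flt1 1.27 ± 0.633 and Cdh5 1.08 ± 0.407. Summed over endothelial genes, the set held 102 to 283 CPM in WT and 41.0 to 68.1 in cKO, and over both mural genes 89.2 to 168 and 15.6 to 41.0. The collagen sum was 324 to 769 CPM in WT and 167 to 610 in cKO. In cKO replicate 1, the highest of that group, the sums were 610 CPM for collagen and 48.4 for endothelial genes.

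Sums over red cell, choroid plexus, fibroblast and microglia markers overlapped between the groups, as did the sum over the 10 vessel genes. The vessel sum was 594 to 1141 CPM in WT and 276 to 676 in cKO. The 6 red cell genes summed to 240 to 2419 CPM in WT and 204 to 1917 in cKO, with Slc4a1 at 0 in all. The 5 choroid plexus genes summed to 574 CPM in WT replicate 1, 12.9 and 16.3 in the other WT libraries and 0 to 22.02 in cKO, with Folr1, Kl and Kcnj13 at 0 in all. Leaving out Pdgfra, which oligodendrocyte precursors also express, 10 fibroblast genes summed to 105 to 182 CPM in WT and 64.1 to 221 in cKO, with Lum and Ogn at 0. The 10 microglia genes summed to 216 to 698 CPM in WT and 125 to 429 in cKO, with Tmem119 at 0. Gene by gene, all 9 microglia genes with a mean of at least 5 CPM had a negative log2 fold change (45.9% of all genes). Their median was −0.52. Of these 9, 2 were lower without overlap (9.34%) and 1 was lower at an unadjusted p below 0.05 (5.05%). The red cell list had 2 negative values of 4, and the fibroblast list without Pdgfra 3 of 5. The part of these cells in the vessel values was not tested.

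Among 5910 other tested genes, those whose log2(CPM + 1) followed the mean of the 8 tested vessel genes most closely over the 6 libraries were Mt3 (Pearson r = 0.992), Fyn (0.991), Trappc11 (0.984), Matn4 (0.979) and Ints4 (0.979). The 6 points are the same libraries, share depth and composition, and are given as a description. Mt3, a metal-binding protein of astrocytes and neurons, stood at 448, 634 and 549 CPM in WT and at 113, 68.1 and 53.8 in cKO. It fell by 2.79 on the log2 scale (SE 0.43, edgeR adjusted p = 0.0435), and did not pass with the other filters, with a batch term or block, or with any library left out (adjusted p = 0.0729 to 0.394). Matn4, a matrix protein of oligodendrocyte precursors, was at 25, 115 and 18 counts in the WT libraries and at 0 in the cKO libraries, at least 43.1-fold lower with 3 counts taken over the cKO group. Fyn, a kinase of neurons and oligodendrocytes, was at −0.60 (SE 0.21), Trappc11, of vesicle traffic, at −0.87 (SE 0.39) and Ints4, of the integrator complex, at −0.60 (SE 0.37).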

How the data were processed

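RNA from 6 callosum libraries was analysed, grouped by their titles. The submitters' processing notes name STAR 2.7.10b, RSEM 1.3.3 and mm10, with no annotation release or strand setting in the sources used. The authors deposited, per the file headers, expected counts (estimated fragments per transcript) and TPM values; other deposited columns, such as effective length, served only to read fragment length. Expected counts were summed over the 35034 transcripts per gene and rounded.

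The quasi-likelihood test of edgeR 4.0.16 (R 4.3.3), after TMM scaling and filterByExpr at a minimum count of 10, compared cKO with WT over all genes, with Benjamini-Hochberg adjustment and a threshold of 0.05. The SE was approximated by dividing the size of the log2 fold change by the root of F. Pecam1 and Flt1 passed the filter through WT alone and Slc2a1, Pdgfrb and Rgs5 with 1 cKO library, so counts over the set used a filter blind to group, a mean of 5 CPM over all libraries, added after seeing the data. Repeats used DESeq2 1.42.0, upper-quartile or RLE scaling, no or other filters, limma-voom and limma 3.58.1 on log2(TPM + 1) or log2(TPM + 0.1), unrounded counts, a replicate block, a batch term and left-out libraries. The test was tried on simulated data. Genes and lists were chosen with earlier results of these data known. Named genes are the set, up to 4 genes of smallest p per vessel-related list, and the 5 most alike; lists of other cell types are given as sums. Coordinates and exon numbers are from GENCODE M21 (GRCm38). Total expected counts were 843647, 1268430 and 860073 in WT and 852115, 1208382 and 670462 in cKO. Intervals and floors cover counting error only.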

Additional observations from a re-analysis of the deposited data

How the results depend on the processing

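No vessel gene was called in either direction under any alternative run. For the 9 genes with counts, 166 of the repeated values kept their direction and their side of the threshold and 5 reversed, all of Col4a2: 0.34 without WT replicate 2, 0.11 without cKO replicate 2, 0.70 without both replicate 2 libraries, and with the mean of 5 CPM filter 0.35 without WT replicate 2 and 0.71 without both. Abcc9 reversed to −0.27 without both replicate 2 libraries (−0.27 with the mean filter too) and Notch3 to 0.0306 without cKO replicate 2. The median log2 fold change over all genes, 0.0687, was −0.22 with upper-quartile scaling. With single libraries left out, Col4a2 ranged from −0.90 to 0.34 and Notch3 from −1.30 to 0.0306. The numbers of genes called higher and lower, 29 and 25, were 12 and 10 without a filter and with 1 CPM in 3 libraries, 9 and 8 with a mean of 5 CPM (2 and 0 without WT replicate 2, 0 and 0 without both replicate 2 libraries), 11 and 8 with the depth batch as a term, 0 and 0 without both replicate 2 libraries, 192 and 110 with DESeq2, and 0 to 28 and 0 to 14 with single libraries left out. The cause was not tested. The replicate block gave 1 and 0; same-numbered libraries correlated in their deviations from the group means at 0.0638, 0.462 and 0.162, so the numbers were not taken as pairs. Depth limits the sparse genes, where 1 count equals 0.803 to 1.41 CPM.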
